A study of Drosophila montana and Drosophila virilis with 24 samples.

Results

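Act42A, Mhc and sls are the 3 genes of muscle and cytoskeletal filaments on a custom microarray of 218 named genes. Their probes were found by the gene name inside each probe name, with spelling variants joined. The 3 genes were read by 17 of the 925 probe pairs of the array, 6 for Act42A, 3 for Mhc and 8 for sls. Of a list of 58 sarcomere and cytoskeleton genes, these 3 were the only ones on the array. Gene roles given here are those known from Drosophila melanogaster.

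Muscle contracts when filaments of myosin pull on filaments of actin inside repeated units called sarcomeres, and the same actin filaments also give other cells their shape. Myosin heavy chain (Mhc) is the motor protein of the thick filament, and sallimus (sls) is a titin-like protein that ties thick filaments to the Z-disc at the sarcomere's edge. Act42A encodes an actin found in the cytoskeleton of most cells, and in insects the actin cytoskeleton and neuromuscular function are studied as parts of the response to cold.

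The study asked how gene expression differs between mature females of 2 related flies, Drosophila montana and Drosophila virilis, that had been exposed to cold in different ways. Each array held RNA from the whole bodies of 1 pool of 10 females aged 20 days, and each of the 8 groups held 3 pools, giving 15 arrays of D. montana and 9 of D. virilis. All groups were kept in 22 h of light and 2 h of darkness, and the labels give the same window of the day to all, 5 to 6 h from lights on. The control flies of both species stayed at 19°C throughout. Cold-hardened flies of both species spent 1 h at 0°C. Cold-acclimated flies of both species were moved to 5°C for 6 days after 14 days under the control regime. Flies in chill coma, the reversible immobility of chilled insects, were studied in D. montana alone: they spent 16 h at -6°C and were sampled after 15 min or after 1 h of recovery. No strain, transgene or mutation is named for any group.

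A level below is the mean over a gene's probes of the log2 signal, given as the distance from the array's own 75th percentile, so that 1 unit is a doubling. Positive levels lie above that percentile and negative levels below it. The level depends on the probe, so levels are compared between groups of 1 species and never between genes or species. From array to array, the share of spots flagged as well above background ran from 72.25% to 83.1%. The signal at the 75th percentile was 413 to 883 units, with the recovery arrays at 413 to 678. No spot was saturated. A gene is called changed at an adjusted p under 0.05 over all 213 genes tested in D. montana or all 211 in D. virilis. All 3 genes passed the filter on dim probes in both species, Act42A and Mhc with every probe, and sls with 8 probes in D. montana and 7 in D. virilis. In whole bodies, fewer cells of a type and less RNA per cell cannot be told apart.

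Cold acclimation of D. virilis was the comparison in which the genes changed: Mhc rose 1.48-fold and Act42A fell 1.28-fold, while sls did not pass the test. In D. montana the same treatment gave Act42A a difference of nearly the same size, just short of the threshold, and a smaller difference in Mhc that did not pass. Neither cold hardening nor recovery from chill coma moved any of the 3 genes past the threshold in limma's test, and none of the 3 had an unadjusted p under 0.05 in those comparisons. The plot of levels shows every array.

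**Figure D1:**
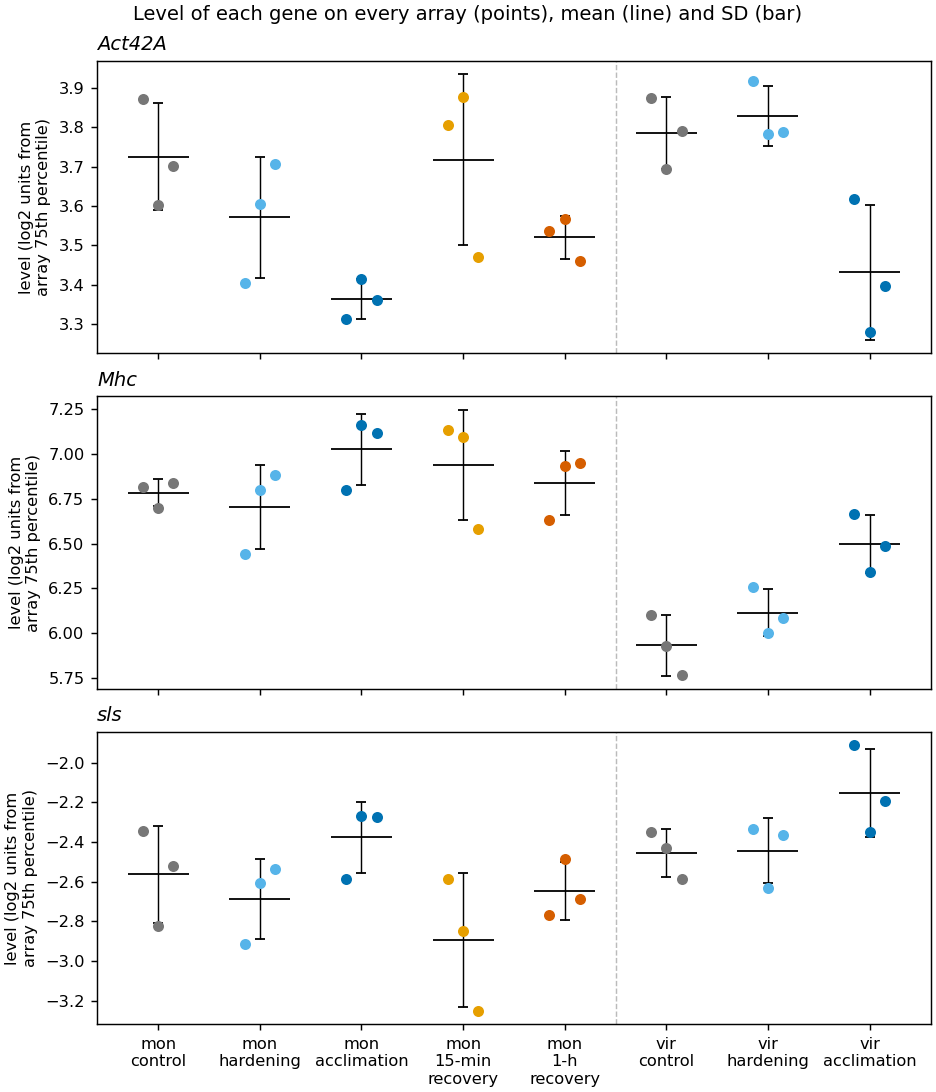
Level of Act42A, Mhc and sls on each array, in log2 units from the array's 75th percentile, with 1 panel and axis per gene; points are the 3 pools of a group, the line is their mean and the bar their SD. For Act42A the acclimated pools of D. virilis lie below all other pools of that species and those of D. montana below all but the lowest hardened pool. The acclimated pools of D. virilis lie highest for Mhc in that species. The share of genes with such separations from hardened or recovery pools was not computed. In the labels mon is D. montana and vir is D. virilis.

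Act42A, the cytoskeletal actin, was lower after 6 days at 5°C. In D. virilis the control pools read 3.88, 3.69 and 3.79, and the acclimated pools 3.62, 3.28 and 3.40. Every acclimated pool lay below every control pool, as was so for 30.8% of the genes tested in that comparison. The log2 change was -0.35 ± 0.10 (SE), with a 95% interval of -0.58 to -0.13 and an adjusted p of 0.0166 by limma with Benjamini-Hochberg adjustment, the 63rd largest change of 211 genes. Acclimation changed many genes in this species: 39.3% of all genes tested passed, 24.6% in the lower direction. Each of the 3 slides held arrays of all 8 groups, and within slides 1, 2 and 3 the acclimated array read lower than the control array by log2 differences of -0.26, -0.41 and -0.39.

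Leaving out 1 array could move this call. Without acclimated replicate 2 the change was -0.28 with an adjusted p of 0.0571, without acclimated replicate 3 it was -0.34 with 0.0567, and without control replicate 3 it was -0.35 with 0.0507. In each of these fits the change kept its sign. Scaling on the spike-in RNAs gave -0.34 with an adjusted p of 0.220.

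In D. montana the control pools read 3.87, 3.60 and 3.70 for Act42A, and the acclimated pools 3.31, 3.41 and 3.36. The acclimated pools were close together and all lay below the controls, which was so for 26.3% of genes tested there. The log2 difference of -0.36 ± 0.13 had a 95% interval of -0.64 to -0.08 and an adjusted p of 0.0502, so that Act42A was not called. In this comparison 26.8% of genes tested were called, 9.86% higher and 16.9% lower. Within slides 1, 2 and 3 the log2 differences were -0.56, -0.29 and -0.24. With slide as a block the same difference had an adjusted p of 0.0451, and in a fit of all 24 arrays 0.0207. The difference between species in this response, D. montana minus D. virilis, was -0.01 ± 0.16, with a 95% interval of -0.35 to 0.33 and an adjusted p of 0.965.

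Hardening left the Act42A levels within the spread of the pools. The hardened pools of D. montana read 3.41, 3.60 and 3.71, and those of D. virilis 3.92, 3.78 and 3.79. Both sets overlapped with their controls. The log2 differences were -0.15 ± 0.13 in D. montana (95% interval -0.43 to 0.12, adjusted p 0.653) and 0.04 ± 0.10 in D. virilis (95% interval -0.18 to 0.26, adjusted p 0.905) by limma. Few genes of any kind were called after hardening, 0.469% in D. montana and 0.474% in D. virilis.

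After chill coma, Act42A read 3.81, 3.88 and 3.47 in the pools sampled at 15 min and 3.54, 3.57 and 3.46 in those sampled at 1 h. The 15-min pools spanned the range of the controls. The 1-h pools all lay just below the lowest control, as was so for 9.86% of genes tested in that comparison. The log2 difference from control was -0.01 ± 0.13 at 15 min (95% interval -0.29 to 0.27, adjusted p 0.982) and -0.20 ± 0.13 at 1 h (95% interval -0.48 to 0.07, adjusted p 0.462) by limma. Among all genes 6.57% were called at 15 min and 2.82% at 1 h. From 15 min to 1 h the Act42A difference was -0.20 ± 0.13 (adjusted p 0.760), where 1.88% of genes were called. All comparisons of a species use the same 3 control arrays, apart from that between the recovery times.

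Ordered by mean level, Act42A in D. montana ran from control (3.73 ± 0.14, SD, n = 3) through 15-min recovery (3.72 ± 0.22), hardening (3.57 ± 0.15) and 1-h recovery (3.52 ± 0.05) to acclimation (3.36 ± 0.05). The first 4 groups of this order overlapped with their neighbours, and the 3 acclimated pools lay below every 1-h recovery pool and within reach only of the lowest hardened pool. In D. virilis the order was hardening (3.83 ± 0.08), control (3.79 ± 0.09) and acclimation (3.43 ± 0.17), with only the first pair overlapping. The share of genes whose acclimated pools separate from hardened or recovery pools was not computed.

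The first number in a probe name was read as the number of a gene fragment, which the labels do not explain, and no probe sequences were available. On this reading the 6 probes of Act42A sit on 2 fragments, numbered 1 and 2, with 2 and 4 probes. After acclimation all 6 read lower in both species, by -0.55 to -0.21 in D. montana and by -0.48 to -0.24 in D. virilis. Tested 1 probe at a time over all probes, 4 of the 6 passed in D. virilis, where 36.9% of probes passed and 23.5% did so in the lower direction, and 2 of the 6 in D. montana, where 20.7% passed and 12.6% in the lower direction. The probes that passed in D. virilis were 1_2b, 2_0b, 2_2b and 2FR. Those that passed in D. montana were 1FR, at -0.55 with an adjusted p of 0.00505, and 2_0b, at -0.46 with an adjusted p of 0.0301. Averaged by fragment, the change in D. virilis was -0.28 for fragment 1 and -0.39 for fragment 2, and in D. montana it was -0.40 and -0.34. The acclimated pools lay below the controls on both fragments in both species. Among gene values 30.8% did so in D. virilis and 26.3% in D. montana, and the share over fragments was not computed. Actin genes are close to identical in their coding sequence, so the probes named for Act42A may also take up RNA of other actin genes, and the value is uncertain to that degree.

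**Figure D2:**
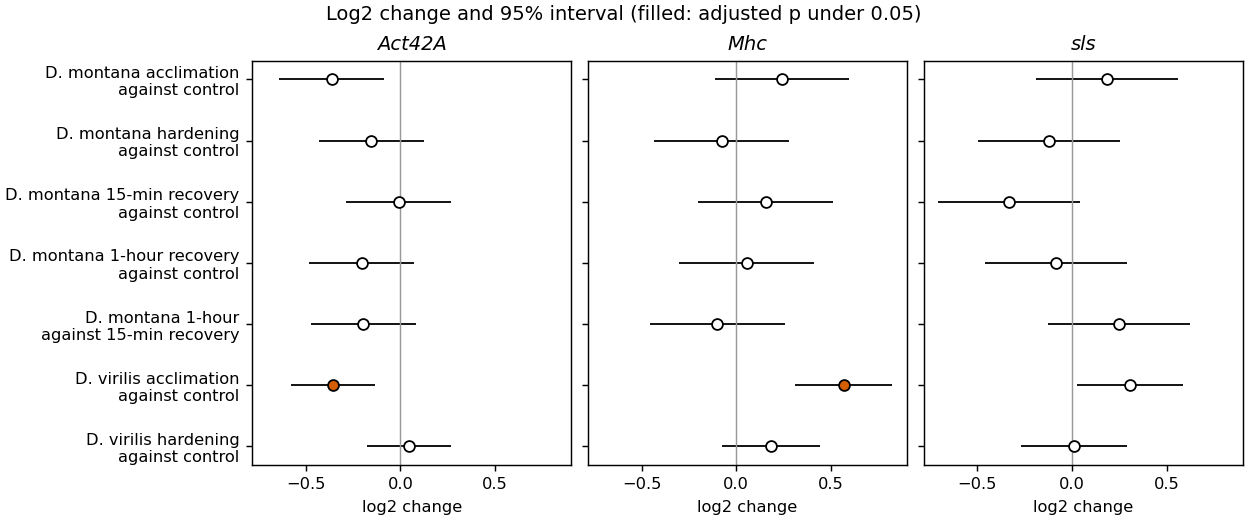
Log2 change of each gene in the 7 comparisons within a species, with limma's 95% interval as a line; filled points have an adjusted p under 0.05. Only Act42A and Mhc after acclimation of D. virilis are filled, and the interval of Act42A in D. montana acclimation also lies below 0.

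Mhc, the myosin motor of muscle, rose after acclimation of D. virilis. The control pools read 6.10, 5.93 and 5.76 and the acclimated pools 6.67, 6.34 and 6.49. All acclimated pools lay above all control pools, as was so for 21.3% of genes tested. The log2 change was 0.57 ± 0.12, a 1.48-fold rise with a 95% interval of 0.31 to 0.82 on the log2 scale and an adjusted p of 0.00308 by limma, the 32nd largest change of 211 genes. Higher calls made up 14.7% of all genes tested. Within slides 1, 2 and 3 the log2 differences were 0.56, 0.41 and 0.72. The call held under all 19 other settings, with changes of 0.40 to 0.80 and adjusted p-values between 0.000698 and 0.0396.

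In D. montana the control pools read 6.81, 6.70 and 6.84 for Mhc and the acclimated pools 6.80, 7.16 and 7.12. Acclimated replicates 2 and 3 lay above every control, and replicate 1 lay among them. The log2 difference was 0.24 ± 0.17, with a 95% interval of -0.11 to 0.60 and an adjusted p of 0.331. Within slides 1, 2 and 3 it was -0.02, 0.32 and 0.42. The response of D. montana minus that of D. virilis was -0.32 ± 0.22, with a 95% interval of -0.77 to 0.12 and an adjusted p of 0.407 by limma, in a comparison where 12.4% of 209 genes were called. The 2 species were therefore not shown to differ in Mhc, although 1 of them passed the threshold and the other did not.

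After 1 h at 0°C, Mhc read 6.44, 6.80 and 6.88 in D. montana and 6.26, 6.00 and 6.09 in D. virilis. Both groups overlapped with their controls. The log2 differences were -0.08 ± 0.17 (95% interval -0.43 to 0.28, adjusted p 0.839) and 0.18 ± 0.12 (95% interval -0.07 to 0.44, adjusted p 0.561) by limma. The difference between species in this response was -0.26 ± 0.22 with an adjusted p of 0.591, where 0.478% of genes were called.

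During recovery from chill coma, Mhc read 7.14, 7.10 and 6.58 at 15 min and 6.63, 6.93 and 6.95 at 1 h. Both recovery groups had pools above and below the controls. The log2 difference from control was 0.15 ± 0.17 at 15 min (95% interval -0.20 to 0.51, adjusted p 0.547) and 0.05 ± 0.17 at 1 h (95% interval -0.30 to 0.41, adjusted p 0.886) by limma, and from 15 min to 1 h it was -0.10 ± 0.17 (adjusted p 0.973). The sign of the recovery differences turned under quantile normalization, to -0.08 at 15 min and -0.04 at 1 h.

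By mean level, Mhc in D. montana ran from acclimation (7.03 ± 0.20) through 15-min recovery (6.94 ± 0.31), 1-h recovery (6.84 ± 0.18) and control (6.78 ± 0.07) to hardening (6.71 ± 0.23). Each group overlapped with its neighbours in this order. In D. virilis the order was acclimation (6.50 ± 0.16), hardening (6.11 ± 0.13) and control (5.93 ± 0.17), and the acclimated pools lay above all pools of the other groups. The share of genes whose acclimated pools separate from the hardened pools was not computed.

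The 3 probes of Mhc, named 1_0b, 1_1b and 1R, sit on 1 fragment and gave nearly equal changes. All 3 passed in D. virilis acclimation, with changes of 0.55, 0.57 and 0.58 and adjusted p-values of 0.00443 to 0.00467 over all probes, of which 13.4% passed in the higher direction. In D. montana acclimation they read 0.23 to 0.25 higher, with adjusted p-values of 0.355 to 0.382. Probes read as 1 fragment may share their target, so they are not taken as independent readings. The single Mhc gene makes many muscle myosins by alternative splicing, and 1 fragment does not tell them apart.

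After acclimation of D. virilis Act42A fell and Mhc rose. In D. montana the mean differences had the same signs, but neither gene passed and Mhc overlapped with its controls. The difference between the genes on the same array does not depend on scaling that shifts a whole array, such as to a percentile or to spike-ins. Quantile normalization and background correction can change it. At 15 min of recovery quantile normalization gave log2 differences from control of -0.08 for Mhc and -0.02 for Act42A. Set to the mean of its own controls, the log2 difference Mhc minus Act42A was 0.90, 0.92 and 0.95 on the 3 acclimated arrays of D. virilis, against 0.08, 0.09 and -0.17 on the controls. On the acclimated arrays of D. montana it was 0.43, 0.69 and 0.69, against -0.12, 0.04 and 0.08 on the controls. In both species the acclimated arrays lay above all controls, by 1.89-fold in D. virilis and 1.52-fold in D. montana on average. The share of gene pairs that separate in this way was not computed. Among single genes, acclimated and control pools did not overlap for 52.1% in D. virilis and 46% in D. montana, in either direction. After hardening the mean was 0.14 ± 0.06 (SD, n = 3) in D. virilis and 0.08 ± 0.09 in D. montana, and it was 0.16 ± 0.11 at 15 min and 0.26 ± 0.20 at 1 h of recovery, all overlapping with the controls. This difference was formed after the changes of both genes were known and was not tested.

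**Figure D3:**
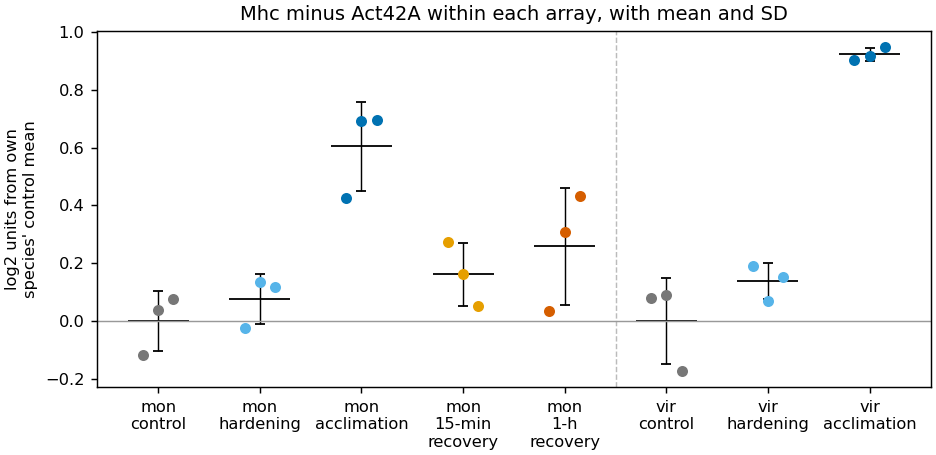
Mhc minus Act42A within each array, in log2 units from the mean of the species' own control arrays, with the mean (line) and SD (bar) of the 3 pools of each group. The acclimated arrays lie above all controls in both species, a share not computed over other gene pairs. The 3 acclimated arrays of D. virilis lie within 0.90 to 0.95.

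The gene value of sls, the titin-like protein of the Z-disc, did not pass in any comparison. In D. virilis the control pools read -2.35, -2.43 and -2.59 and the acclimated pools -1.91, -2.35 and -2.19. Acclimated replicate 2 lay level with the highest control, so the groups met at their edges. The log2 difference was 0.30 ± 0.13, with a 95% interval of 0.02 to 0.58, an unadjusted p of 0.0359 and an adjusted p of 0.0764 by limma. Within slides 1, 2 and 3 it was 0.44, 0.08 and 0.39. With replicate number as a block, which in D. virilis is the same as slide, the adjusted p was 0.0373, and without acclimated replicate 2 the difference was 0.40 with an adjusted p of 0.0353. With the median over the probes in place of the mean the difference turned to -0.11.

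In D. montana the control pools read -2.34, -2.82 and -2.52 for sls and the acclimated pools -2.59, -2.27 and -2.28. The groups overlapped, with a log2 difference of 0.19 ± 0.18 (95% interval -0.19 to 0.56, adjusted p 0.506). The hardened pools read -2.92, -2.61 and -2.54 in D. montana and -2.33, -2.63 and -2.37 in D. virilis. They overlapped with their controls, at -0.12 ± 0.18 (95% interval -0.50 to 0.25, adjusted p 0.792) and 0.01 ± 0.13 (95% interval -0.27 to 0.29, adjusted p 0.970).

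During recovery from chill coma, sls read lowest at 15 min. The pools sampled at 15 min read -2.58, -2.85 and -3.25, and those sampled at 1 h -2.77, -2.49 and -2.69. Replicates 2 and 3 at 15 min lay below every control, and replicate 1 lay among them. The log2 difference from control was -0.33 ± 0.18 at 15 min (95% interval -0.71 to 0.04, adjusted p 0.235) and -0.08 ± 0.18 at 1 h (95% interval -0.46 to 0.29, adjusted p 0.804), and from 15 min to 1 h it was 0.25 ± 0.18 (adjusted p 0.790). The 15-min and 1-h differences from control turned positive, to 0.05 and 0.15, with normexp background correction after spots of extreme background were left out. All recovery arrays apart from 15-min replicate 1 were dimmer at the 75th percentile than every other array of the series, and the part of signal strength in these values was not tested.

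No difference between species in sls passed the test, at -0.06 ± 0.23 for acclimation (95% interval -0.54 to 0.41, adjusted p 0.869) and -0.12 ± 0.23 for hardening (95% interval -0.60 to 0.36, adjusted p 0.828) by limma. By mean level, sls in D. montana ran from acclimation (-2.38 ± 0.18) through control (-2.56 ± 0.24), 1-h recovery (-2.65 ± 0.14) and hardening (-2.69 ± 0.20) to 15-min recovery (-2.89 ± 0.34). Neighbours in this order overlapped. In D. virilis it ran from acclimation (-2.15 ± 0.22) to hardening (-2.45 ± 0.16) and control (-2.46 ± 0.12), again with overlap between neighbours.

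The mean over probes hides a split in sls. Its 8 probes sit on 3 fragments, and the 1 probe of fragment 3, named 3FR, rose after acclimation in both species, while the 4 probes of fragment 2 did not pass in either. On probe 3FR the control pools of D. virilis read -0.27, -1.28 and -1.28 and the acclimated pools 1.05, 0.29 and 0.72. The acclimated pools all lay above the controls, as was so for 21.3% of gene values in that comparison, a share not computed over single probes. The change was 1.63 ± 0.30, with an adjusted p of 0.00241 over all single probes, of which 13.4% passed in the higher direction. In D. montana the controls read -0.63, -0.96 and 0.14 and the acclimated pools 0.11, 0.91 and 0.74. Control replicate 3 lay just above acclimated replicate 1. The change was 1.07 ± 0.37 with an adjusted p of 0.0489 by limma, where 8.14% of probes passed in the higher direction. The alternative settings were fitted to gene values only, so the calls of this single probe were not checked in them.

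Probe 3FR also read high in hardened D. virilis, at -0.02, -0.07 and 0.66, all above the controls. Among gene values, which are means over probes, 5.21% did so in that comparison, and the share over single probes was not computed. The 3FR difference of 1.13 did not pass over all probes, of which 0% did. Its unadjusted p was 0.00380 and its adjusted p 0.160 by limma. In hardened D. montana probe 3FR read -0.18, -0.35 and -0.01, within the range of its controls, a difference of 0.31. At 15 min of recovery it read 0.75, 0.13 and -1.05, the widest spread of any group on this probe, and at 1 h -0.78, -0.65 and -0.37. On the brighter orientation no probe of the 3 genes passed in hardened D. montana, at 1 h of recovery or between the recovery times, where 0.814%, 3.26% and 2.56% of all probes did, and none there had an unadjusted p under 0.05. The difference between species in its acclimation response was -0.56 with an adjusted p of 0.622.

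Fragment 1 of sls read higher in acclimated D. virilis and near control in acclimated D. montana. In D. virilis 2 of its probes passed the filter on dim probes. Their mean read -4.56, -4.42 and -4.69 in the controls and -3.94, -4.30 and -4.28 in the acclimated pools, a difference of 0.38. All acclimated pools lay above all controls, as was so for 21.3% of gene values in that comparison, a share not computed over fragments. Of the 2 probes, 1_2b passed at 0.42 with an adjusted p of 0.0423, and 1_1b read 0.35 higher with an adjusted p of 0.0768. Over all probes 13.4% passed in the higher direction. In D. montana the mean of 3 probes differed by -0.03 and the groups overlapped. The species difference in acclimation did not pass for 1_2b (-0.37, adjusted p 0.511) or 1_1b (-0.30, adjusted p 0.515). The remaining probe, 1F, was well above background on 18 of the 24 arrays and passed the filter in D. montana alone, while the other 16 brighter probes of the 3 genes were well above background on all 24 arrays.

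Fragment 2 of sls read -1.76, -1.72 and -1.87 in the D. virilis controls and -1.64, -2.04 and -1.88 after acclimation, a difference of -0.07. In hardened D. virilis it read -1.88, -2.17 and -2.06, all below the controls, with a mean difference of -0.25, and none of its 4 probes passed. Among gene values 11.4% lay below the controls in that comparison, and the share over fragments was not computed. In D. montana the acclimated pools of fragment 2 read -1.63, -1.56 and -1.48, a difference of 0.13 that overlapped with the controls. With probe 3FR left out, the sls difference in D. virilis acclimation dropped from 0.30 to 0.08, with an adjusted p of 0.624, and that in D. montana acclimation from 0.19 to 0.06.

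**Figure D4:**
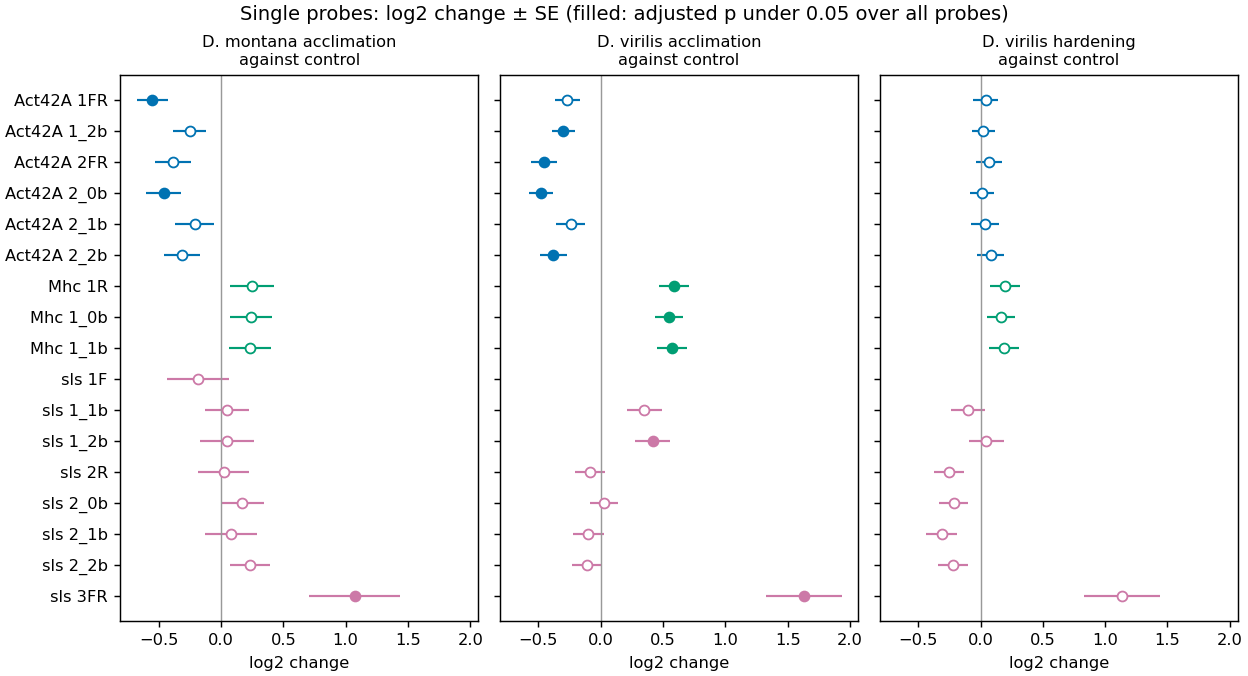
Log2 change of each of the 17 probes in acclimation of both species and in hardening of D. virilis, with the SE as a line; filled points have an adjusted p under 0.05 over all single probes, and sls probe 1F is shown for D. montana alone. The Act42A probes lie below 0 in both acclimation panels, the Mhc probes above 0, and sls probe 3FR lies apart from the other sls probes in all 3 panels.

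At 15 min of recovery 7 of the 8 sls probes read lower than control, by -0.60 to -0.14, and 3FR read 0.43 higher. None of the 8 passed in limma's test over all probes, where 2.21% did, and 5 of the 17 probes of the 3 genes had an unadjusted p under 0.05. From 15 min to 1 h the same 7 probes read 0.26 to 0.42 higher and 3FR read 0.54 lower. On fragment 2 the 15-min pools read -1.92, -1.79 and -2.44 and the 1-h pools -1.78, -1.53 and -1.73. The 1-h pools lay above the 15-min pools, as was so for 5.63% of gene values, a share not computed over fragments. The probes of fragment 2 had adjusted p-values of 0.631 to 0.662 by limma. The sls gene makes transcripts of very different length, among them kettin and the longer sallimus, by alternative splicing. Which of them each fragment reads was not analysed here.

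**Figure D5:**
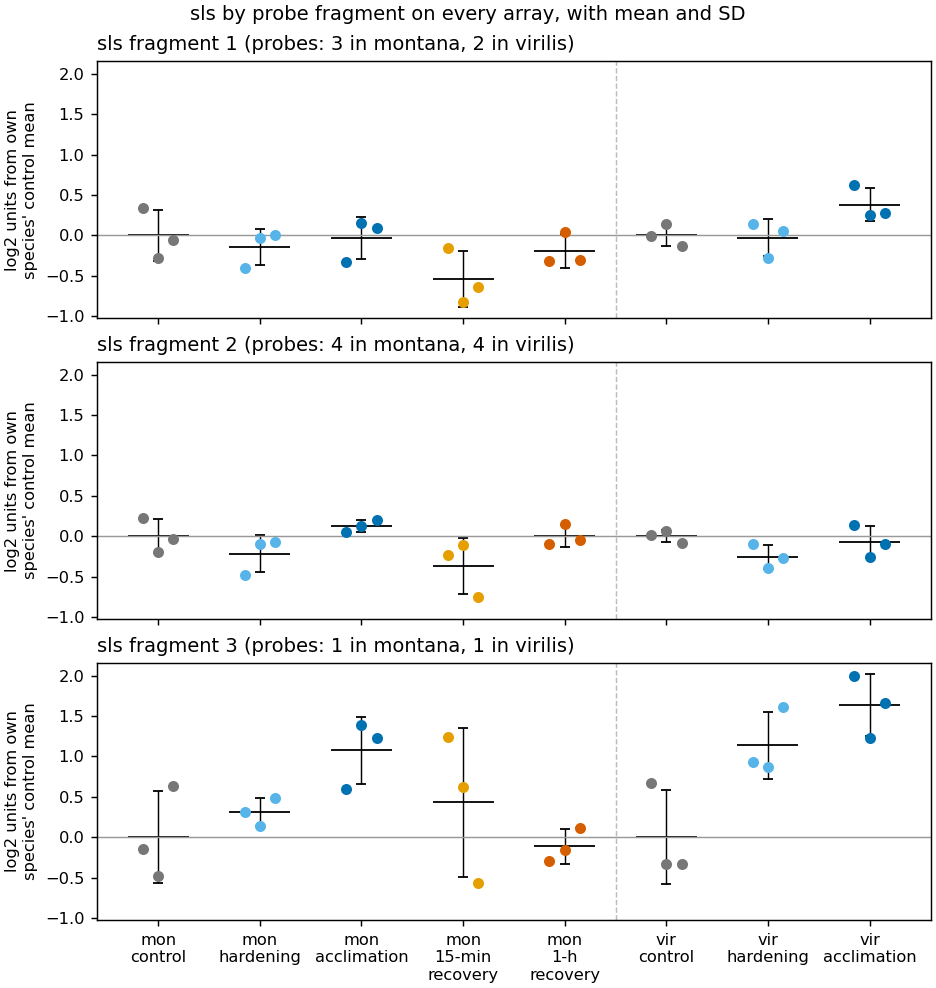
Level of sls by probe fragment on each array, in log2 units from the mean of the species' own controls, with the mean (line) and SD (bar) of the 3 pools of each group. The mean of fragment 3 lies 1.07 and 1.63 above control after acclimation of D. montana and D. virilis. The mean of fragment 1 lies 0.38 above in D. virilis. For fragment 2 the acclimated means, though not every array, stay within 0.13 of control.

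By the probe names, each probe pair was taken to hold the same fragment in both orientations, and the values above come from the brighter one. Within a fragment the same orientation was brighter for every probe. By the probe names, the brighter orientation of sls fragments 1 and 3 was opposite to that of fragment 2, so the sls gene value joins both orientations. On the dimmer orientation none of the probes of the 3 genes passed limma's test after acclimation, where 10.7% of such probes passed in D. montana and 21.9% in D. virilis. The count at an unadjusted p under 0.05 was 3 of 12 in D. virilis and 0 of 14 in D. montana. None of the dimmer probes passed in limma's test in the other comparisons within a species either, where 0.65% of such probes did at 15 min of recovery, 3.74% at 1 h, 2.28% between the recovery times and 0% after hardening in each species. The counts at an unadjusted p under 0.05 were 3 of 14 at 15 min, 3 of 14 at 1 h, 1 of 14 between the recovery times, 0 of 14 in hardened D. montana and 1 of 12 in hardened D. virilis. The 3 at 1 h were Act42A probes 1_2b and 1FR and Mhc probe 1_1b, with log2 differences from control of 0.55, 0.87 and 0.92. On these 3 probes 1-h replicate 3 read highest, at -2.57, -1.68 and 0.38. Replicates 1 and 2 read -3.44 and -3.33, -2.78 and -2.73, and -1.16 and -1.07. The array of replicate 3 was the dimmest of the series at the 75th percentile, at 413 units, and the part of signal strength was not tested. The 1 between the recovery times was sls probe 2_1b, at 0.68. With both orientations averaged the sls difference in D. virilis acclimation was 0.24 with an adjusted p of 0.0420.

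Of a list of 25 genes of nerve and muscle excitation, 8 were on the array, and these were measured in D. montana and 6 of them in D. virilis. After acclimation 3 of 8 fell and 0 rose in D. montana, where 16.9% of all genes tested were called lower and 9.86% higher. In D. virilis 3 of 6 fell and 0 rose, beside 24.6% and 14.7% of all genes, and at these shares so few genes without a rise are no result about the list. The list medians were -0.13 and -0.23, beside medians of 0.000574 and -0.06 over all genes tested. The calcium channel gene cac fell in both species, in D. montana with a log2 change of -0.80 ± 0.17 (adjusted p 0.00230) and in D. virilis with one of -0.78 ± 0.15 (adjusted p 0.00179). Genes of 2 potassium channels, slo and eag, fell in D. montana by 0.60 and 0.54 on the log2 scale. There Sh, also of a potassium channel, and para read 0.38 and 0.25 higher and did not pass. The genes of calmodulin (Cam) and of the kinase it activates (CaMKII) fell in D. virilis by 0.30 and 0.37. In D. virilis slo read 0.25 higher without passing, and eag and para were not measured. None of the 6 genes passed limma's test of the species difference in acclimation, with adjusted p-values of 0.0676 for slo and 0.0939 for CaMKII. At 15 min of recovery cac fell, with a log2 change of -0.72 ± 0.17 and an adjusted p of 0.0244 by limma. Among all genes tested 6.57% were called in that comparison, and 4.23% were called lower. The other 7 genes did not pass, though 4 of the 8 had an unadjusted p under 0.05. Besides cac these were eag, slo and Sh, with log2 differences of -0.55, -0.51 and 0.48 and an adjusted p of 0.0859 each. None of the listed genes passed in limma's test after hardening or at 1 h of recovery, where 0 and 2 of the 8 in D. montana had an unadjusted p under 0.05, and 0 of the 6 in hardened D. virilis.

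Markers of other cell types in the whole body were read in the comparison in which Mhc and Act42A changed. In D. virilis acclimation the summed linear level of 13 photoreceptor genes was 133 to 155 times the array's 75th percentile, against 108 to 131 in the controls, and 2 of the 13 rose, the opsin genes Rh3 and Rh4, a share near the 14.7% of all genes called higher. The summed level of 4 neuronal genes was 1.95 to 2.32 against 2.38 to 2.65, and 2 of the 3 that were tested fell, cac and Csp, where 24.6% of all genes were called lower. Neither sum overlapped with its controls, as was so for 52.1% of gene values there in either direction, a share not computed over sums. The sums were taken without the filter on dim probes, and the brightest genes weigh most in them. In D. montana acclimation both sums overlapped with the controls. Of 15 muscle markers only Mhc and sls were on the array, and none of the listed markers of ovary, fat body or male germline was, so the share of these tissues was not measured. The part of tissue composition in the changes of Act42A and Mhc was not tested.

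Over the 6 comparisons with control, the gene nearest to Act42A among 209 measured in both species was rdgB, with a mean absolute difference of 0.08 in log2 change, followed by CG9743 and CG15531 at 0.11 each. The median over all genes was 0.26. The nearest to Mhc were SerT at 0.08, Hsc70-2 at 0.11 and dy at 0.12, with a median of 0.33. The nearest to sls were Amph at 0.12, Rh5 at 0.13 and Gp93 at 0.14, with a median of 0.28. Mhc and sls lay 0.19 apart, closer than Act42A and sls at 0.29 or Act42A and Mhc at 0.36. In Mhc's order of likeness sls came 28th and Act42A 130th. These distances share control arrays within a species and describe the 24 arrays alone.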

How the data were processed

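Each of the 24 arrays, of 1 colour (Cy3) and a custom Agilent layout, carried 600 ng of labelled total RNA from 1 pool, per the labels' protocols. The authors deposited spot intensity as scanned and background-subtracted by Agilent Feature Extraction 10.7.1.1, as the file headers state, with no normalization between arrays. A second deposited table of intensity, with column medians of 69.4 to 72.7, served as an alternative. How it was normalized is not given in the sources used; the submitters' processing notes name limma and give it no role.

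From the deposited intensity, outlier spots were left out, the log2 signal was averaged over 8 spots per probe, and each array was set to its 75th percentile, taken without control probes. Gene values are means over probes of the brighter orientation, kept where every array in 1 group or more was well above background. limma 3.58.1 (lmFit, eBayes; R 4.3.3) was fitted to the 15 D. montana arrays, the 9 D. virilis arrays, or all 24 for differences between species. Benjamini-Hochberg adjustment ran over all genes or probes, with a threshold of 0.05. The steps were tested on simulated data with noise drawn independently for each probe. Such data do not give the error rate where the probes of a gene vary together. Replicates are separate pools per the labels, and their number limits the precision.

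Act42A, Mhc, sls and the lists were chosen with earlier results of these data known. The text names these 3 genes, listed sarcomere genes on the array and, for each of the 3, the 3 genes with the smallest mean absolute difference in log2 change. The excitation and marker genes named beside them were chosen after their values were seen. Alternatives were spike-in scaling, quantile normalization, normexp with an offset of 50 on the median signal (the files hold no mean signal), both orientations, the median over probes, no filter, all arrays in 1 fit, blocks by replicate number or slide, the authors' table and leaving out each array. Gene symbols are those in the probe names, of which 2 of the 3 matched RefSeq symbols of D. montana.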

Additional observations from a re-analysis of the deposited data

How the results depend on the processing

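Apart from leaving out arrays, 354 alternative values were computed for the 3 genes. Of these 301 kept direction and side of the threshold, 43 reversed, 7 newly passed and 3 no longer passed. The reversed values passed neither before nor after, and the cause was not tested unless given. Mhc in D. virilis acclimation passed in each setting. Act42A there no longer passed with normexp (-0.12, or -0.13 by maximum likelihood) or with spike-in scaling (-0.34). Act42A in D. montana acclimation passed in a fit of all arrays (-0.36), with slide as a block (-0.36), in the authors' table (-0.25) and with normexp without extreme spots (-0.37). sls in D. virilis acclimation passed with both orientations averaged (0.24) and with slide as a block (0.30).

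Normexp departed most. On 4 arrays 2 to 10 spots, 21 in all, had a local background over 100 units above their signal, and there the 25th percentile after normexp was 405 to 1626, against 68.4 to 75.5 on the other 20. Without those spots it was 69.7 to 75.5 on the 4 arrays, and Act42A and Mhc in D. virilis acclimation passed at -0.36 and 0.55. Values that reversed are given for normexp, for normexp by maximum likelihood and, where they reversed there too, without those spots. Mhc was -0.18 and -0.17 at 15-min recovery, and -0.55, -0.56 and -0.012 at 1-h recovery. sls was 0.44, 0.45 and 0.046 at 15-min recovery, 0.71, 0.72 and 0.15 at 1-h recovery, -0.089, -0.095 and -0.0065 in D. virilis hardening, -0.13 and -0.13 in D. virilis acclimation, 0.35 and 0.35 for the species difference in acclimation and 0.039 and 0.048 for that in hardening. Normexp itself was planned. Its use on the median signal, its fit by maximum likelihood, its fit without extreme spots, the slide block, the fit of the dimmer orientation and the removal of probe 3FR were chosen after seeing the data.

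Other settings reversed these values. Mhc turned in quantile normalization and the authors' table, to -0.082 and -0.057 at 15-min recovery, -0.041 and -0.033 at 1-h recovery, and 0.041 and 0.024 between recovery times, and in spike-in scaling to -0.097 at 1-h recovery. With both orientations averaged Act42A was 0.22 at 15-min and 0.13 at 1-h recovery, and sls 0.093 at 1-h recovery and -0.074 in D. virilis hardening. The Act42A species difference in acclimation was 0.046 with spike-ins, 0.10 with quantiles, 0.00054 with both orientations, 0.025 with the median over probes and 0.082 in the authors' table. With that median sls was -0.11 in D. virilis acclimation, -0.22 in D. virilis hardening, 0.13 for the species difference in acclimation and 0.046 for that in hardening. sls in D. virilis hardening was -0.0017 without the filter and -0.18 without probe 3FR, where the species difference in acclimation was 0.018.

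Spike-in scaling moved the median change of all genes from 0.03 to -0.15 in D. montana hardening, from 0.004 to -0.11 at 15-min recovery, from -0.05 to -0.20 at 1-h recovery and from 0.09 to -0.15 for the species difference in hardening. The share of calls that were higher went from 36.8% to 51.9% in D. montana acclimation and from 37.3% to 63.9% in D. virilis acclimation with spike-ins, and to 62.5% there with normexp. It went from 35.7% to 0% with spike-ins and 16.7% with quantiles at 15-min recovery, from 83.3% to 50% with normexp at 1-h recovery, and from 100% to 83.3% with quantiles between recovery times. Over all alternatives the number of genes called ran from 11 to 67 in D. montana acclimation (57 as reported), from 16 to 95 in D. virilis acclimation (83), from 1 to 34 at 15-min recovery (14), from 2 to 14 at 1-h recovery (6), from 1 to 9 between recovery times (4), from 0 to 35 for the species difference in acclimation (26), and from 0 to 4, 7 and 3 in D. montana hardening, D. virilis hardening and their difference (1 each).

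Leaving out 1 array at a time moved a call or a sign in these results, given as ranges. Act42A ran from -0.088 to 0.12 at 15-min recovery, from -0.45 to -0.28 in D. virilis acclimation, from -0.0029 to 0.088 in D. virilis hardening and from -0.083 to 0.086 for the species difference in acclimation. Mhc ran from -0.28 to 0.0031 in the comparison of recovery times, from -0.0022 to 0.16 at 1-h recovery and from -0.17 to 0.055 in D. montana hardening. sls ran from -0.21 to 0.026 at 1-h recovery, from 0.18 to 0.40 in D. virilis acclimation, from -0.055 to 0.11 in D. virilis hardening and from -0.19 to 0.056 for the species difference in acclimation.

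The replicate numbers were not shown to pair the pools: correlations of same-numbered deviations ran from -0.43 to 0.42 over the 7 comparisons within a species, and in none were all over 0.1. With the replicate block sls in D. virilis acclimation passed (0.30, adjusted p 0.0373), and no other call of the 3 genes changed. Slides differ from replicate numbers in D. montana alone. In D. montana acclimation, where Act42A passed with the slide block (adjusted p 0.0451, against 0.0502), deviations of arrays on the same slide correlated at 0.13 to 0.15, all over 0.1, and in no other comparison were all over 0.1.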
